A study of Canis lupus familiaris with 55 samples.

Results

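Expression of Notch receptors, Notch ligands and their HEY target genes was measured by RNA-seq in canine embryonic gonads. Members were chosen by gene name: 10 genes were asked for (*NOTCH1*, *NOTCH2*, *NOTCH3*, *JAG1*, *JAG2*, *RBPJ*, *HES1*, *HEY1*, *HEY2* and *HEYL*), and 8 of them had a locus of that name among the 58781 loci assembled from the reads. No locus carried the name *HES1* or *HEYL*, and both were not analysed here. XX DSD embryos were XX, *SRY*-negative dogs of a model pedigree of American cocker spaniel and beagle descent that develops testes or ovotestes, homozygous or heterozygous for a guanine insertion on CFA9; their number was 9 at gestational d35, 8 at d37-39 and 6 at d41-44, each age from 4 litters. They were at risk, since the gonad that each embryo would have formed was not known. By the study's embryo list, XX DSD embryos of d41-44 were all homozygous, and those of d35 and d37-39 were of both genotypes. Genotype thus changed with age in XX DSD embryos. XY littermates of the same pedigree, which also carried the insertion, numbered 4 at d35, 5 at d37-39 and 3 at d41-42. Those of d37-39 were all homozygous, and those of d35 and d41-42 were of both genotypes. Controls were wild-type beagles: 6 XX and 6 XY embryos at d37-39 from 2 litters, 3 XX and 3 XY embryos at d44 from 1 litter, and at d34 1 pool of 6 XX and 1 pool of 7 XY embryos, which carry no replicate. In the oldest groups the controls were of d44 and the pedigree embryos of d41 to d44, so age also differed there. Breed background and sequencing pool differed between pedigree and controls together with the insertion, so these cannot be told apart. Each of the 53 other libraries held the gonad pair of 1 embryo, and in such bulk tissue fewer cells of a type and less RNA per cell cannot be told apart.

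Notch receptors are membrane proteins that are cut after they bind a ligand, such as a Jagged protein, on a neighbouring cell. The freed intracellular part enters the nucleus, joins the DNA-binding protein RBPJ and raises transcription of target genes, many of them of the HES and HEY families of repressors. In the mouse fetal gonad, Notch signalling is known for keeping interstitial precursors of steroidogenic cells from maturing early, and in vessels of many tissues it acts between endothelium and the mural cells that coat it.

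Values are FPKM, sequenced fragments at a locus scaled to transcript length and to library size. A difference was called when its Benjamini-Hochberg adjusted p, from limma on log2(FPKM + 1) over all loci with a mean of at least 1 FPKM in a group, was under 0.05. Fold changes are given on that log2 scale, which understates changes of low genes. Replicate embryos of 1 litter share a dam, so the p-values measure spread between embryos more than between litters. The summed FPKM of 5 Leydig cell markers, a check of the sex labels, was 338–535 in XX and 9634–10569 in XY control gonads at d44. At d35 it was 168–1084 in XX DSD embryos and 1073–6401 in XY littermates, which overlapped, and the d34 pools had 233 FPKM in XX and 252 FPKM in XY. Read totals were not used here. Relative depth, read from the commonest ratio of low values, spanned 0.158 to 1 over libraries. Its medians were 0.295 in XX DSD embryos of d41-44 and 0.847 in XX controls of d44. For A1104, the library at that control median, and for C3512 and C3573, the estimate differed by 1 log2 unit between reference libraries. The share of summed FPKM on loci without an annotated gene reached 82.9% in XX DSD embryos of d35. At d37-39 it was 10.1–58.1% in XX DSD embryos and 6.98–10.7% in XX controls, and at the oldest ages 7.60–9.42% in XX DSD embryos and 8.21–10.1% in XX controls. Counts of called members were repeated without 5 libraries, picked after the data were seen, only in comparisons that held any of them. Comparisons of XX DSD with XX control gonads held none. The 5 were C3575, which had the highest such share, and A1099, C3627, C3637 and C3638. The last 4 had 6768–8612 loci without an annotated gene at 1 FPKM or more, against 2347–4896 in all other libraries. Since C3627, C3637 and C3638 are among the 5 XY littermates of d37-39, that group was left with 2 embryos.

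The ligand gene *JAG1* and the receptor gene *NOTCH1* were lower in XX than in XY gonads from d37-39 on in both pedigrees, and *HEY2* was lower in XX controls. Between pedigrees the pattern was another one: in XX DSD gonads *JAG2*, *NOTCH1* and *NOTCH3* were lower and *RBPJ* higher than in XX controls at both ages, whereas *JAG1* showed no called difference. Of the 8 members, 4 were called in XX DSD against XX control gonads at d37-39 (1 higher, 3 lower), where 13.8% of all loci tested were called, 5.65% higher and 8.11% lower. At d41-44, 6 were called (2 higher, 4 lower), where 48.5% of all loci were called, 19.3% higher and 29.2% lower, so that a call there sets a gene little apart from the rest. Under a stricter rule, which also asked that the means differ 2-fold or more and that one of them reach 4 FPKM, no member passed at d37-39 (2.03% of loci) and *JAG2* and *HEY2* passed at d41-44 (6.15%). In XY littermates against XY controls, 1 member was called at d37-39 (background 1.29%). None was called by limma at d41-42 (11.2%), where 4 members had an unadjusted p under 0.05 and no exact permutation p could fall below 0.1. The groups of 5 members did not overlap. The share of all loci without overlap was not computed, so this count does not set the members apart. With litter as a random block 4 members were called at d41-42, in a fit that called 33% of all loci and estimated a litter correlation of −0.25.

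**Figure D1:**
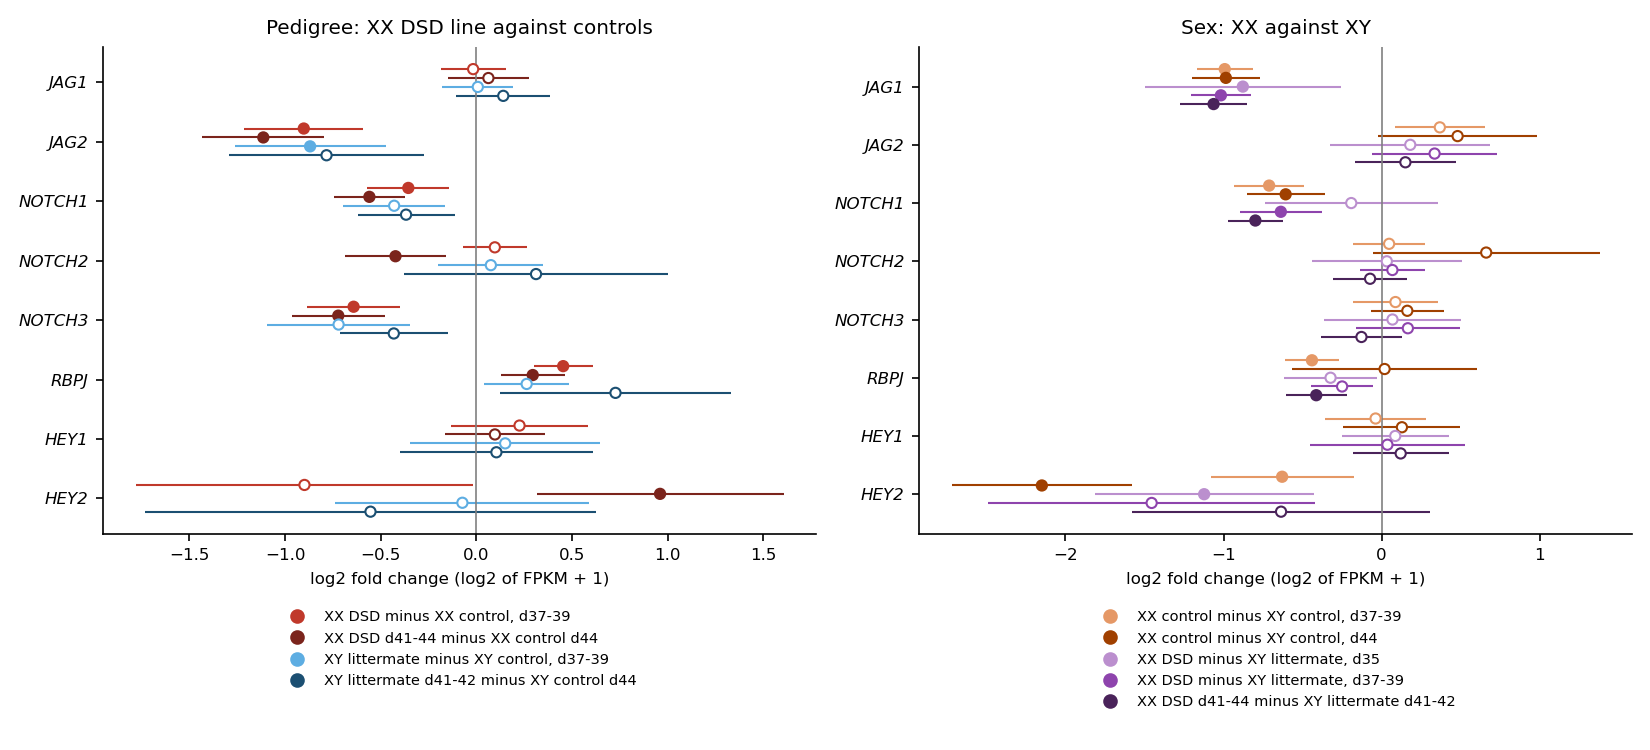
Log2 fold change on log2(FPKM + 1) of the 8 members with its 95% confidence interval, for the pedigree comparisons (left) and the sex comparisons (right); filled points had an adjusted p under 0.05. *JAG1* lies near 0 in the 4 pedigree comparisons and between −1.06 and −0.88 in the 5 sex comparisons, whereas *JAG2* and *NOTCH3* are below 0 in the 4 pedigree comparisons.

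*JAG1* (XLOC_026062, CanFam3 chromosome 24, 11655717 to 11694554, plus strand) encodes a Notch ligand. At d37-39 its FPKM in XX controls had a lowest, median and highest value of 5.60, 6.25 and 8.07, against 13.3, 13.6 and 15.1 in XY controls. No XX value reached an XY value, and the log2 fold change was −0.99 (SE 0.0815, adjusted p 1.48e-06, limma). At d44 XX controls had 5.29, 5.40 and 5.80 FPKM and XY controls 10.8, 12.0 and 12.9 FPKM. The groups were again separate, with a log2 fold change of −0.99 (adjusted p 0.000805). Groups of the pedigree with XX DSD were separate as well. XX DSD embryos of d37-39 had 5.75, 6.44 and 7.32 FPKM (lowest, median, highest), and their XY littermates had 15.8, 15.8, 13.3, 12.5 and 12.9 FPKM. At d41-44 XX DSD embryos had 4.89, 5.55 and 6.98 FPKM, and XY littermates had 13.02, 13.1 and 13.3 FPKM. The log2 fold changes were −1.02 at d37-39 (adjusted p 3.05e-06) and −1.06 at d41-44 (adjusted p 5.6e-05), so XX DSD gonads held 0.457 and 0.442 of the level in their XY littermates. Quantile normalization, which moved the median of all loci from −0.28 to 0.33 at d37-39, reduced that value to −0.41 and ended the call (adjusted p 0.357, range over the alternatives 3.85e-07 to 0.357).

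The separation of *JAG1* was not complete at d35. XX DSD embryos of that age had 1.55, 4.22 and 6.30 FPKM (lowest, median, highest), and XY littermates had 3.61, 11.4, 10.2 and 9.39 FPKM. Only the XY littermate C3574 lay within the XX DSD range. The log2 fold change of −0.88 passed the threshold by little (adjusted p 0.0442), and leaving out a single library ended the call in 9 of 13 cases. Litter ended it too, as a random block (−0.79, adjusted p 0.0546) and as a fixed block (−0.63, adjusted p 0.169), which compares the sexes within shared litters. The d34 pools held 3.56 FPKM in XX and 5.24 FPKM in XY. Between pedigrees, XX DSD and XX control gonads differed in *JAG1* by −0.02 at d37-39 (95% interval −0.19 to 0.15) and by 0.06 at d41-44 (95% interval −0.15 to 0.28) on the log2 scale, intervals that leave out a 2-fold difference.

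**Figure D2:**
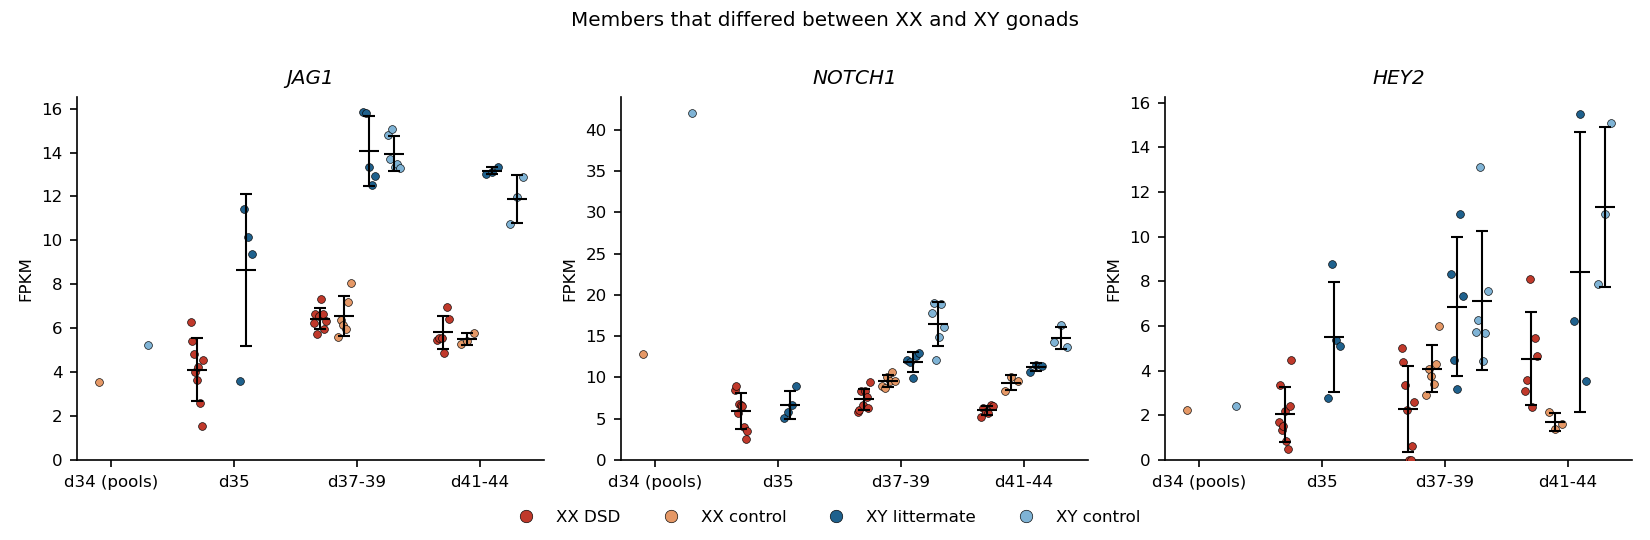
FPKM of *JAG1*, *NOTCH1* and *HEY2* by gestational age; each point is 1 library, horizontal marks are group means and bars are 1 SD. The controls of the oldest age are of d44 and its XY littermates of d41-42. All XX points of *JAG1* from d37-39 on lie at or below 8.07, and all XY points of those ages at or above 10.8.

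*JAG2* (XLOC_052143, chromosome 8, 72535484 to 72568614, minus strand) encodes another Notch ligand, and its locus also holds *NUDT14*, whose reads cannot be told apart from those of *JAG2* at this locus. XX DSD gonads of d37-39 had 5.60, 8.79 and 10.6 FPKM (lowest, median, highest), against 13.4, 16.8 and 18.9 FPKM in XX controls. No values overlapped (exact permutation p 0.000666, the smallest this design allows), and the ratio of means was 0.516 (log2 fold change −0.90, SE 0.145, adjusted p 0.00116). At d41-44 XX DSD gonads had 5.51, 7.35 and 8.88 FPKM, and the XX controls had 17.7, 14.8 and 16.8 FPKM. Again the groups were separate, and XX DSD gonads held 0.434 of the control level (log2 fold change −1.11, SE 0.141, adjusted p 0.000167). At d37 alone the log2 fold change of *JAG2* was −1.09 (adjusted p 0.00678, limma). It was −0.85 for *NOTCH3*, −0.65 for *NOTCH1* and 0.36 for *RBPJ*, each called. This set the XX DSD embryos C3512 and C3515, which shared a litter, against the XX controls A1097, A1098 and A1101, which shared another. Litter and pedigree cannot be told apart there, and the share of all loci called was not computed. C3512 and C3515 were the 2 least like the rest of their group (median correlations 0.933 and 0.938). Their share of FPKM on loci without an annotated gene was 10.1–10.4%. Both calls of *JAG2* held under each alternative tried, with values of −1.09 to −0.71 at d37-39 and −1.22 to −0.87 at d41-44.

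XY littermates of d37-39 had 6.27, 5.14, 4.45, 7.95 and 8.20 FPKM of *JAG2*, against 7.97, 13.1 and 14.4 FPKM (lowest, median, highest) in XY controls. The XY control A1095 alone reached into the littermates' range. *JAG2* was the 1 member called there (log2 fold change −0.87, SE 0.18, adjusted p 0.047), and the call was lost when any of 10 of the 11 libraries was left out. At d41-42 XY littermates had 6.24, 6.78 and 5.72 FPKM and XY controls of d44 had 15.7, 11.1 and 8.59 FPKM, a log2 fold change of −0.78 that missed the threshold (adjusted p 0.0607) and passed it without the control A1109 (−0.97, adjusted p 0.04). The interaction of pedigree and sex, which tests whether the pedigree difference was unlike in XX and XY gonads, called none of the 8 members at d37-39 (background 0.00514%, adjusted p 0.675 to 0.957, none with an unadjusted p under 0.05) or at d41-44 (0.115%, adjusted p 0.299 to 0.984, 2 with an unadjusted p under 0.05).

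*NOTCH1* (XLOC_053833, chromosome 9, 48872937 to 49019038, plus strand) encodes a receptor, and its level moved with both sex and pedigree. In XX controls of d37-39 the lowest, median and highest values were 8.67, 9.55 and 10.6 FPKM, against 12.2, 17.0 and 19.0 FPKM in XY controls. The groups did not overlap, with a log2 fold change of −0.71 (adjusted p 0.000185). At d44 the XX controls had 8.41, 10.1 and 9.61 FPKM and the XY controls 14.3, 16.3 and 13.7 FPKM (log2 fold change −0.61, adjusted p 0.00807). XX DSD gonads of d41-44 ranged from 5.25 to 6.62 FPKM, below the 10.7, 11.6 and 11.4 FPKM of their XY littermates, and the log2 fold change of −0.80 was called. So was that of −0.64 at d37-39 (adjusted p 0.00318), which quantile normalization took to −0.01. At d35 XX DSD embryos averaged 5.90 ± 2.19 FPKM (SD, n = 9) and XY littermates 6.62 ± 1.69 FPKM (SD, n = 4), without a call.

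Against XX controls, XX DSD gonads had 5.83, 7.17 and 9.47 FPKM of *NOTCH1* at d37-39 (lowest, median, highest), and the control values given above overlapped with these. The log2 fold change was −0.36 (SE 0.1, adjusted p 0.0291), and the call was lost without any 1 of the libraries A1089, A1097, A1098, A1101 and C3630 (adjusted p up to 0.0710), and with litter as a random block (−0.35, adjusted p 0.153). At d41-44 the groups were separate and the log2 fold change was −0.56 (SE 0.0812, adjusted p 0.000378). XY littermates averaged 11.9 ± 1.19 FPKM and XY controls 16.5 ± 2.68 FPKM at d37-39 (SD, n = 5 and 6), where the log2 fold change of −0.43 was not called (adjusted p 0.113) but was without A1095 (−0.51, adjusted p 0.0124). *NOTCH1*, *NOTCH3* and *JAG2*, which were lower in XX DSD gonads at both ages, lay in the most gene-dense windows of the members, with 55, 33 and 29 genes per Mb. *NOTCH2* had 14, *RBPJ* 10, *JAG1* and *HEY2* 8 and *HEY1* 7. Across all loci the pedigree fold changes fell with gene density (Spearman rho −0.285 in XX at d37-39 and −0.306 at d41-44), a relation across loci, which are not replicates. After a curve of fold change on gene density was removed, a step chosen after the data were seen, *NOTCH1* differed by 0.0043 at d37-39 (adjusted p 0.981) and by −0.10 at d41-44 (adjusted p 0.315) in XX embryos, and by 0.11 and 0.08 in XY embryos. Gene density as a cause of these differences was not tested.

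*NOTCH3* (XLOC_021074, chromosome 20, 46941509 to 46978119, plus strand), a receptor gene best known from vascular mural cells, was lower in XX DSD gonads at both ages. At d37-39 XX DSD gonads had 12.9, 14.2 and 22.1 FPKM (lowest, median, highest), against 21.6, 24.96 and 26.6 FPKM in XX controls, so that the highest XX DSD value alone lay in the control range. The log2 fold change was −0.64 (SE 0.113, adjusted p 0.0021), and −0.57 with embryos of d39 alone (adjusted p 0.0591). At d41-44 XX DSD gonads had 11.7, 13.9 and 16.9 FPKM, and the XX controls 21.6, 26.2 and 23.8 FPKM, with no overlap (log2 fold change −0.72, SE 0.107, adjusted p 0.000434). With the gene density curve removed, *NOTCH3* still passed the test in XX embryos at −0.42 in each age group, as did *JAG2* at −0.71 and −0.87. In XY littermates *NOTCH3* differed from XY controls by −0.72 at d37-39 (adjusted p 0.0672; −0.83 and adjusted p 0.00965 without A1095) and by −0.43 at d41-42 (adjusted p 0.0612).

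**Figure D3:**
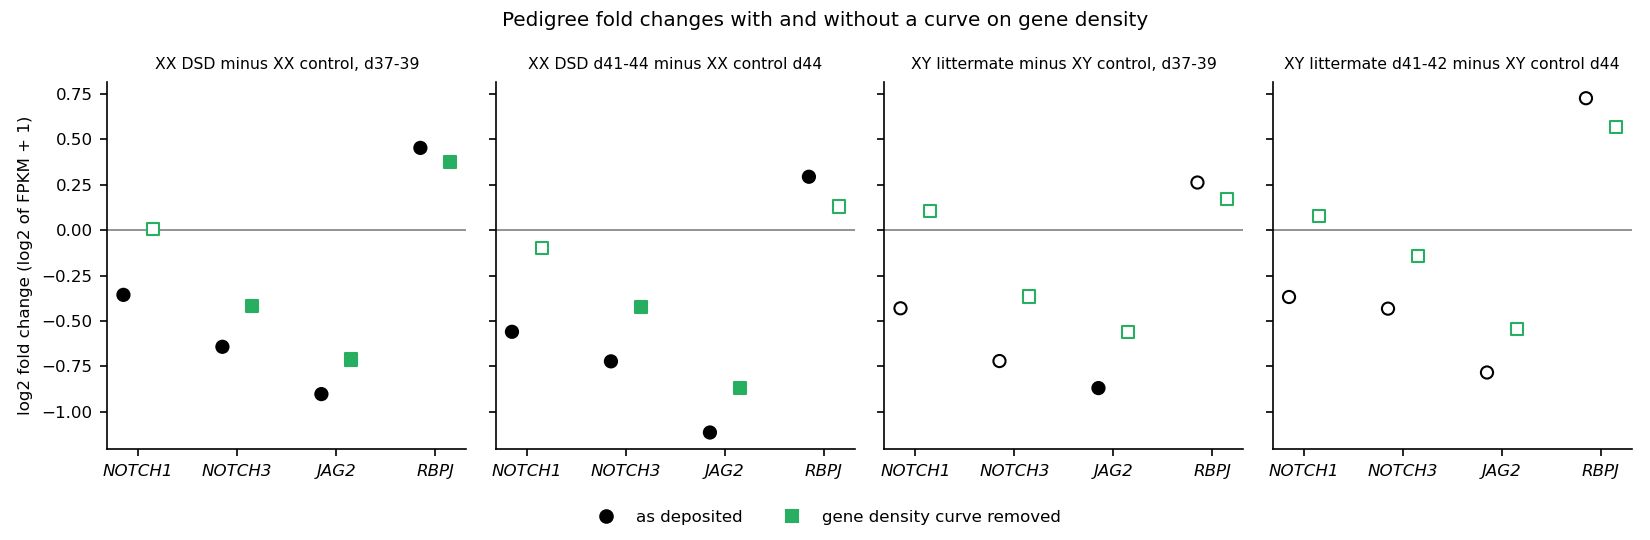
Log2 fold change on log2(FPKM + 1) of *NOTCH1*, *NOTCH3*, *JAG2* and *RBPJ* in the 4 pedigree comparisons, as deposited (circles) and after the relation of fold change to gene density was removed (squares); filled symbols had an adjusted p under 0.05. *NOTCH1* moves to between −0.10 and 0.11, whereas *NOTCH3* and *JAG2* stay called in XX embryos.

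*NOTCH2* (XLOC_014788, chromosome 17, 56854909 to 57020991, minus strand) had the highest FPKM of the members in every group, with means between 38.1 and 58.8 FPKM over the groups of single embryos. It was called in 1 comparison. XX DSD gonads of d41-44 had 36.9, 43.7 and 49.0 FPKM (lowest, median, highest), just below the 49.3, 71.1 and 56.1 FPKM of the XX controls. The log2 fold change was −0.42 (SE 0.116, adjusted p 0.0134), and without the control A1107 it was −0.28 (adjusted p 0.0529). In the d34 pools, which stand for 1 library each, *NOTCH1*, *NOTCH2* and *NOTCH3* had 12.8, 62.8 and 24.8 FPKM in XX and 42.01, 121 and 74.3 FPKM in XY. No other XY library was as high for any of them, and this XY pool had the lowest relative depth of all libraries, 0.158.

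**Figure D4:**
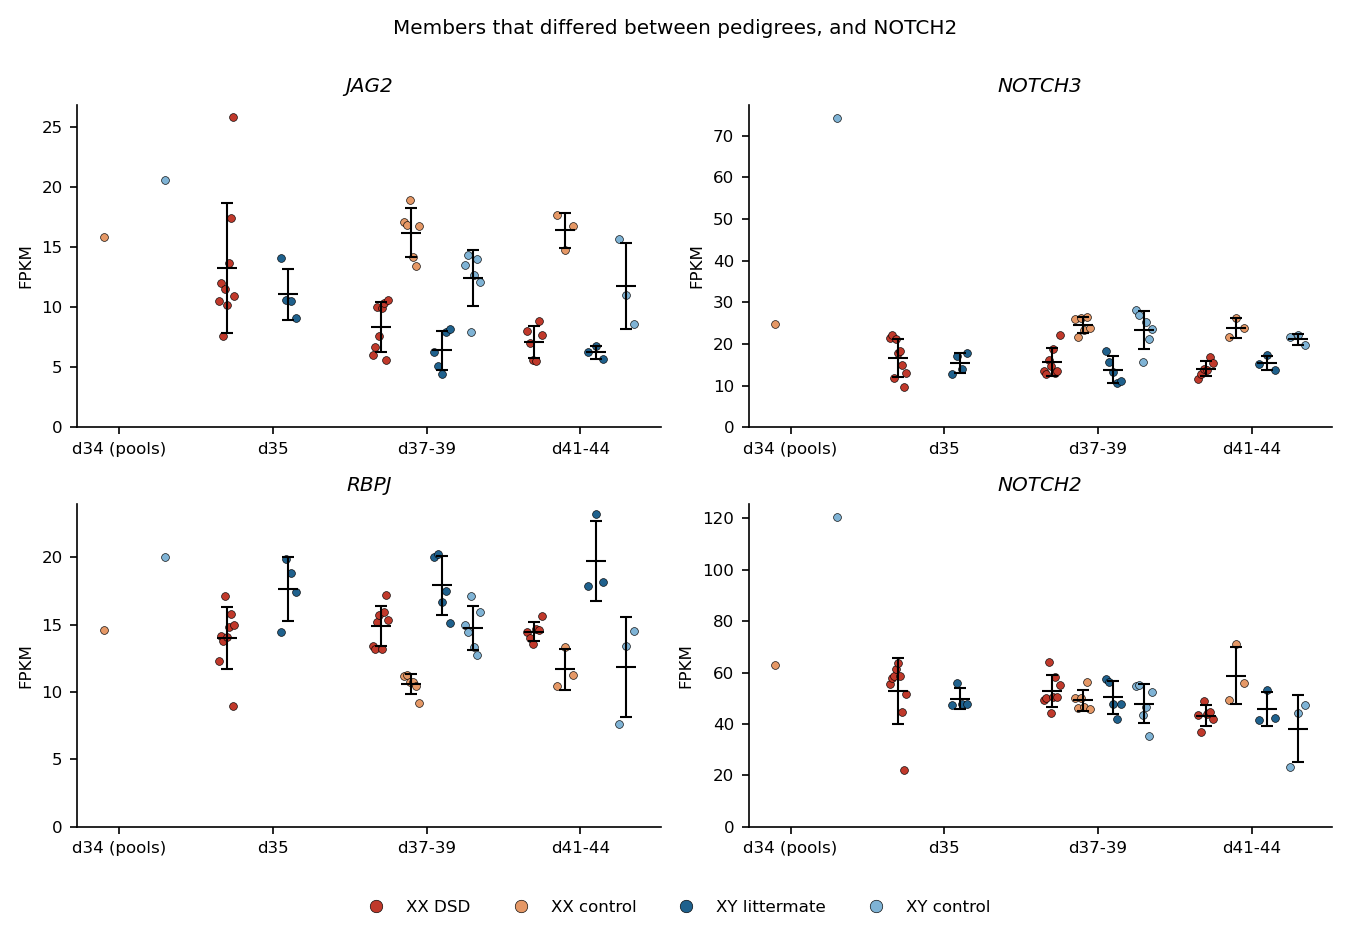
FPKM of *JAG2*, *NOTCH3*, *RBPJ* and *NOTCH2* by gestational age; each point is 1 library, horizontal marks are group means and bars are 1 SD. At d41-44 the XX DSD points of *JAG2* (at most 8.88) and *NOTCH3* (at most 16.9) lie below all 3 XX controls, and those of *RBPJ* lie above them.

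*RBPJ* (XLOC_034026, chromosome 3, 84060419 to 84164169, minus strand), the DNA-binding partner of the cut receptors, was the 1 member higher in XX DSD than in XX control gonads at both ages. At d37-39 XX DSD gonads had 13.2, 15.2 and 17.2 FPKM (lowest, median, highest) and XX controls 9.15, 10.7 and 11.2 FPKM. The groups did not overlap, and the ratio of means was 1.41 (log2 fold change 0.45, SE 0.0716, adjusted p 0.00107). Quantile normalization took this value to 0.29 (adjusted p 0.0706). At d41-44 XX DSD gonads had 13.6, 14.5 and 15.6 FPKM, above the 10.4, 13.3 and 11.2 FPKM of the XX controls (log2 fold change 0.29, SE 0.0734, adjusted p 0.00851). The second of these calls was lost with the gene density curve removed (0.13, adjusted p 0.209; range over the alternatives 0.000259 to 0.209). XX controls of d37-39 were in turn below XY controls, which averaged 14.7 ± 1.61 FPKM (SD, n = 6; log2 fold change −0.44, adjusted p 0.000944), and XX DSD gonads of d41-44 were below the 17.9, 23.2 and 18.1 FPKM of their XY littermates (log2 fold change −0.41, adjusted p 0.00634; −0.36 and adjusted p 0.117 with litter as a fixed block, where *JAG2* was called instead).

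A further locus, XLOC_033587, overlapped *RBPJ* on the plus strand (84060308 to 84064646). The libraries came from a kit that does not mark strand, so reads of both loci cannot be told apart. This second locus was itself higher in XX DSD gonads, with means of 9.34 FPKM against 3.58 FPKM in XX controls at d37-39 and 7.90 FPKM against 1.70 FPKM at d41-44. When both loci were summed, XX DSD gonads remained above XX controls, by 0.73 at d37-39 (adjusted p 0.000322) and 0.69 at d41-44 (adjusted p 0.000259) on the log2 scale. The 2 sex differences of *RBPJ* no longer passed the test (−0.21, adjusted p 0.266 in controls of d37-39; −0.38, adjusted p 0.0669 in the pedigree at d41-44).

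*HEY2* (XLOC_000261, chromosome 1, 64632817 to 64643377, plus strand) encodes a transcriptional repressor induced by Notch. It was low and variable, and its difference between XX and XY controls was wide at d44. There XX controls had 2.17, 1.37 and 1.63 FPKM and XY controls 7.90, 11.02 and 15.1 FPKM. XX controls held 0.152 of the XY control level (log2 fold change −2.15, SE 0.234, adjusted p 0.00164, range over the alternatives 0.000419 to 0.00611). With 3 embryos a group, an exact permutation p could not fall below 0.1. At d37-39 the XX controls had 2.92, 3.94 and 5.99 FPKM (lowest, median, highest) and the XY controls 4.43, 5.99 and 13.1 FPKM, which overlapped. The log2 fold change of −0.63 was called (adjusted p 0.0406) but lost the call without any 1 of 7 of the 12 libraries and with litter as a fixed block (adjusted p 0.0505). In all, 4 members were called between the control sexes at d37-39 (background 26.5%, of loci lower in XX 13.8%) and 3 at d44 (24.8%, lower 12%), each lower in XX.

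In the pedigree with XX DSD, 2 members were called between the sexes at d35 (background 21.4%), 2 at d37-39 (7.49%) and 3 at d41-44 (28.3%). *HEY2* was among them at d35, where XX DSD embryos had 0.500, 1.72 and 4.46 FPKM (lowest, median, highest) and XY littermates 2.78, 8.77, 5.37 and 5.09 FPKM (log2 fold change −1.12, SE 0.322, adjusted p 0.0238). The call was lost without any 1 of the XY littermates C3617, C3618 and C3619, and with litter as a random block (−0.97, adjusted p 0.0510) or a fixed block (−0.55, adjusted p 0.400). At d37-39 the log2 fold change was −1.45 (adjusted p 0.1). At d41-44 it was −0.64 (adjusted p 0.298), with XY littermates spread over 6.24, 15.5 and 3.56 FPKM.

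*HEY2* also differed between ages, over windows that differed between the XX groups. Both calls described here were lost when the locus on its opposite strand, described below, was added. XX controls of d44 were below those of d37-39 without overlap (log2 fold change −0.89, SE 0.174, adjusted p 0.0371), the 1 member called there (background 2.61%). Leaving out 1 library ended that call in 6 of 9 cases. In XX DSD gonads *HEY2* rose, at d41-44 against d35 (log2 fold change 0.89, adjusted p 0.0192), with values of 5.48, 4.68, 3.09, 8.09, 2.35 and 3.58 FPKM at d41-44. Without C3684, the highest of these, the value was 0.74 (adjusted p 0.0541). Litter and the mix of insertion genotypes also differed between d35 and d41-44, so they cannot be told apart from age. The difference between XX DSD and XX control gonads was −0.90 at d37-39 (adjusted p 0.184) and 0.96 at d41-44 (SE 0.285, adjusted p 0.0201), where all 6 XX DSD values lay above the 3 controls (exact permutation p 0.0238, the smallest this design allows). The change of that difference with age, 1.86 on the log2 scale, did not pass its own test (adjusted p 0.0973; 0.676% of loci did). The call at d41-44 was lost without the control A1107 (0.86, adjusted p 0.0806) or A1110 (0.94, adjusted p 0.0704), without embryos of d41 (0.86, adjusted p 0.0738), with litter as a random block (0.94, adjusted p 0.0668) and with the gene density curve removed (0.79, adjusted p 0.0558).

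The locus XLOC_001087 lay opposite *HEY2* on the minus strand (64635672 to 64643490). In the XX DSD embryos C3632 and C3633 of d37-39, *HEY2* was listed at about 0 while the opposite locus had 1.69 and 2.25 FPKM, and in C3575 of d35 the opposite locus was at about 0 and *HEY2* at 2.44 FPKM. Reads of the pair cannot be told apart by strand. Summed over both loci, XX DSD gonads of d41-44 averaged 5.15 FPKM and XX controls of d44 2.76 FPKM, a log2 difference of 0.64 that was no longer called (adjusted p 0.0859). Neither the fall of *HEY2* with age in XX controls nor its rise in XX DSD gonads was called on the sums. The difference between control sexes at d44 was still called (−2.02, adjusted p 0.00148). XX DSD gonads of d37-39 then passed the test against their XY littermates (−1.16, adjusted p 0.00994).

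**Figure D5:**
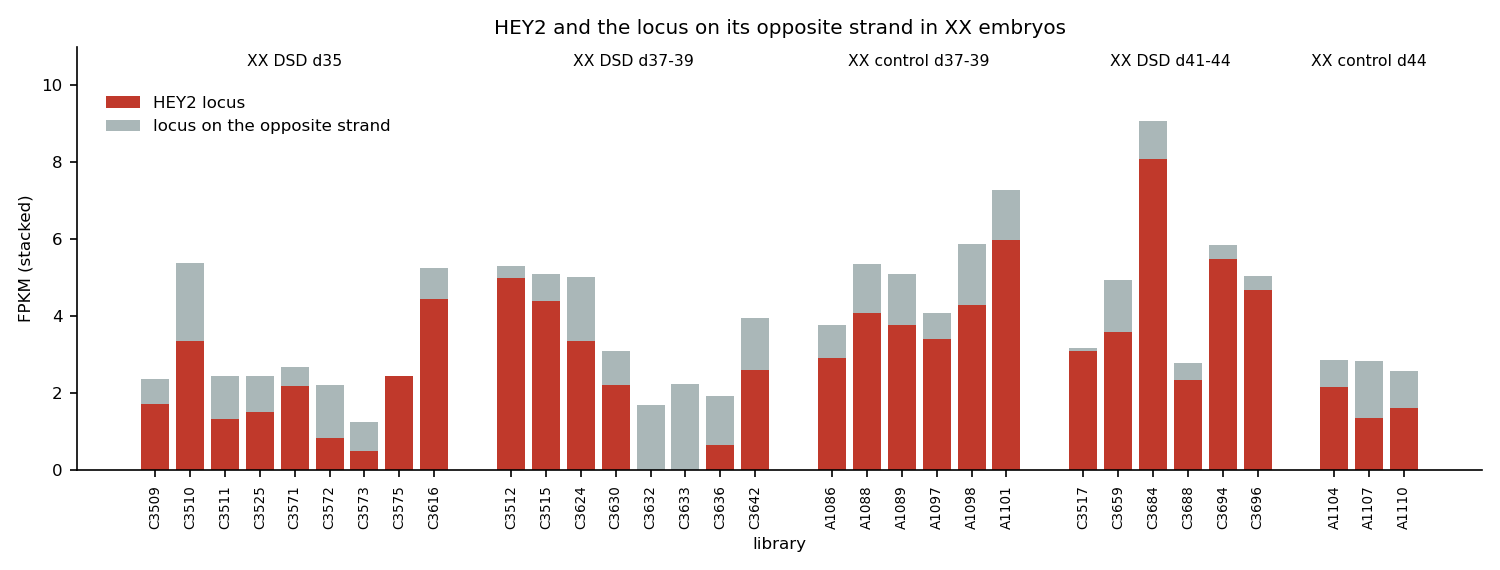
FPKM of the *HEY2* locus and of the locus on its opposite strand, stacked, in each XX library of single embryos. *HEY2* is at about 0 in C3632 and C3633, where the opposite locus has 1.69 and 2.25 FPKM, and the 3 controls of d44 lie between 2.57 and 2.86 FPKM in sum.

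*HEY1* (XLOC_032635, chromosome 29, 27184046 to 27188121, minus strand), a related repressor, had group means between 1.40 and 2.05 FPKM and was called in no comparison. Over ages, 2 members were called in XX DSD gonads of d41-44 against d35 (background 35%), *HEY2* and *JAG2* (−0.76, adjusted p 0.00758). In XY littermates of d41-42 against d35, *JAG2* fell by 0.73 (adjusted p 0.0069) and *NOTCH1* rose by 0.70 on the log2 scale (adjusted p 0.0145), 2 members at a background of 38.4%. In XY controls limma called none between d44 and d37-39 (0.138%), where 1 member had an unadjusted p under 0.05 and 1 an exact permutation p under 0.05.

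Other genes of the pathway were counted from a fixed list of ligands, proteases, sugar transferases, turnover factors, nuclear cofactors and further targets. In XX DSD against XX control gonads at d37-39, 4 of 40 tested were higher and 4 lower (median log2 fold change −0.06, against 0.09 for all loci, of which 5.65% were higher and 8.11% lower). The lower ones included *RFNG*, a sugar transferase that modifies Notch receptors (mean 24.6 FPKM against 42.8 FPKM), and *MIB2*, a ubiquitin ligase that acts on Notch ligands (7.42 FPKM against 12.3 FPKM). The higher ones included *APH1B*, a subunit of the gamma-secretase that cuts the receptor (16.9 FPKM against 12.0 FPKM). At d41-44, 9 were higher and 25 lower of 40 (median −0.50, against −0.09 for all loci, of which 19.3% were higher and 29.2% lower). Neither this list nor the marker lists described below were examined with the gene density curve removed. *RFNG* had 20.6 FPKM in XX DSD and 44.3 FPKM in XX control gonads, and the vascular genes *NOTCH4* and *DLL4* had 0.970 FPKM against 2.47 FPKM and 1.84 FPKM against 3.54 FPKM. *NRARP*, a target that dampens the pathway, had 5.21 FPKM against 8.77 FPKM. The same list gave 0 calls of 42 in XY littermates at d37-39, where 0.402% of all loci were higher and 0.885% lower. At d41-42 it gave 10 of 41, all lower, where 8.58% of all loci were lower and 2.63% higher. Between control sexes *DLK1*, a non-canonical ligand, had a mean of 0.494 FPKM in XX and 59.97 FPKM in XY at d37-39. There 7 of the 42 genes were higher and 10 lower in XX, where 12.7% of all loci were higher and 13.8% lower.

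Markers of some cell types also differed in these comparisons. In XX DSD against XX control gonads of d41-44, 29.2% of all loci were lower and 19.3% higher. There 8 of 10 endothelial markers were lower and none higher, with summed levels of 170–186 FPKM in XX DSD and 228–261 FPKM in XX control gonads. Of 8 mural markers, of which *KCNJ8* and *ABCC9* share a locus, 4 were lower (72.2–86.5 FPKM against 97.1–124 FPKM in sum). Of 6 pre-granulosa markers 5 were lower (83.5–118 FPKM against 210–220 FPKM). Of 7 interstitial markers 2 were higher and 3 lower, and of 6 Sertoli markers 1 was higher and 2 lower. Of 5 Leydig markers 1 was higher, and of 6 macrophage markers 2 were lower. Germ cell, mesonephros and erythroid markers, 3 of each, had 1 lower each, and the 1 surface epithelium marker tested was not called. At d37-39, where *JAG2* and *NOTCH3* were also lower, 2 of 10 endothelial and none of the 8 mural markers were, and the sums overlapped (143–231 FPKM against 177–216 FPKM for endothelium, 53.7–102 FPKM against 73.2–92.05 FPKM for mural cells). Of the 6 pre-granulosa markers 3 were lower at d37-39, with sums of 65.2–120 FPKM in XX DSD and 115–186 FPKM in XX control gonads. Of all loci 8.11% were lower at that age. Beside the sex differences of *JAG1*, *NOTCH1* and *HEY2*, all 5 Leydig and 5 of 6 Sertoli markers were lower in XX in each of the 5 sex comparisons. In controls, all 6 pre-granulosa markers were higher in XX at both ages. At d37-39, 2 of 8 mural markers were higher and 5 lower, and 2 of 10 endothelial markers were higher and 2 lower. At d44, 1 mural and 2 endothelial markers were higher and none lower. Of all loci 12.7% were higher and 13.8% lower at d37-39, and 12.8% and 12% at d44. The part of these cell types in the Notch results was not tested.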

How the data were processed

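RNA from the gonad pair of each embryo was sequenced as single-end reads with a kit that does not mark strand. Per the labels and the submitters' processing notes, the authors used cutadapt 1.5 for trimming, TopHat2 2.0.13 for alignment to canFam3 and Cufflinks 2.2.1 for assembly; the deposited FPKM values per locus came from Cuffnorm, with no counts. The deposited assembly, whose positions are of the unit other, gave the names and positions. The study's embryo list gives C3694, C3696 and C3691 as d38 and the labels as d41; they were kept in the oldest groups.

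Groups were compared with limma 3.58.1 (trend, two-sided) in R 4.3.3 on log2(FPKM + 1), over loci whose mean reached 1 FPKM in a group, with Benjamini-Hochberg adjustment, and single genes with exact permutation tests in scipy 1.17.1. The fit was tested on simulated data. Gene density counted annotated genes in windows of 1 Mb. All 8 members were named. The members, pathway list and marker lists were chosen with earlier results of these data known. Alternatives were other pseudocounts, filters, scalings and fits, litter as a random or fixed block, subsets by age and leaving out each library. No sequence is shown, because none of the files used here holds one.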

Additional observations from a re-analysis of the deposited data

Results flagged for a closer look

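Among the 56 combinations of member and group with 4 to 10 libraries, 4 held a library far from the others, where chance gives about 1 in 20. In XY controls of d37-39, A1095 had the highest *HEY2* (13.12 FPKM, the next 7.578) and the lowest *JAG2* (7.966 FPKM, the next 12.1). In XX DSD embryos of d35, C3575 had the lowest *NOTCH2* (22.23 FPKM, the next 44.68); it is also the library with the highest share of FPKM on loci without an annotated gene. In XY littermates of d35, C3617 had the highest *NOTCH2* (55.83 FPKM, the next 47.92). No member's difference between groups passed an interaction test.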

How the results depend on the processing

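The labels give no replicate numbers that link embryos across groups. The study's embryo list gives litters, which were fitted as a random block and, between the sexes and for the interactions, as a fixed block. Of the alternatives, some added after the data were seen (gene density, annotated loci, 5 libraries left out, opposite-strand loci, litter as a fixed block), these moved the number of members called. XX DSD against XX controls had 2 called with embryos of d39 alone, and at d41-44 had 3 with all groups in one fit or the gene density curve removed. XY littermates against XY controls at d37-39 had 2 with a pseudocount of 0.1 or all groups in one fit, 3 with quantile normalization or annotated loci alone, and 0 with no filter, limma without trend, litter as a block, the density curve removed, embryos of d39 alone or without the 5 libraries. At d41-42 they had 2 with all groups in one fit, 4 with the random litter block (33% of all loci called, against 11.2% without it) and 3 over annotated loci. XX DSD against XY littermates at d35 had 1 with a pseudocount of 0.1, median-ratio scaling or no trend, and 0 with no filter or litter as a random or fixed block, and at d37-39 0 with quantile normalization. XX controls of d44 against d37-39 had 0 with no filter, no trend, all groups in one fit, the litter block or the opposite-strand locus added. XX DSD embryos of d41-44 against d35 had 1 without embryos of d41 or with the opposite-strand locus added. The cause of these moves was not tested.

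Values that changed sign on the log2 scale were *JAG1* in XX DSD against XX controls (0.00496 at d37-39 with median-ratio scaling, 0.0779 with embryos of d39 alone; −0.11 at d41-44 with the density curve removed, −0.0295 without embryos of d41), *NOTCH1* with the density curve removed (0.0043 in XX at d37-39; 0.11 and 0.0790 in XY), *HEY2* in XX at d37 alone (0.055) and *RBPJ* in XY at d37-39 with quantile normalization (−0.46). Quantile normalization took the all-loci median in XY at d37-39 from 0.345 to −0.23.

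With each library left out in turn, the members called numbered 3 to 4 in XX DSD against XX controls at d37-39 and 4 to 6 at d41-44, 0 to 3 and 0 to 1 in XY littermates against XY controls, and 0 in both interactions. Between sexes they numbered 3 to 5 and 3 to 4 in controls at d37-39 and d44, and 0 to 2, 2 and 3 in the pedigree at d35, d37-39 and d41-44. Over ages they numbered 0 to 1 in XX controls, 0 in XY controls, 1 to 3 in XX DSD embryos and 2 to 3 in XY littermates. *JAG1* ranged from −0.0548 to 0.0372 in XX at d37-39, and *HEY2* from −0.25 to 0.13 in XY at d37-39.

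The alternative with the authors' annotated table was not run, because its symbols could not be paired with its gene identifiers. XX against XY controls of d44 had no fit with a litter block, since all came from 1 litter, and pedigrees and ages shared no litter for a fixed block. FPKM without counts sets no detection limit, so low *HEY1* and *HEY2* values have unknown counting error.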

Other observations

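Across the 53 libraries of single embryos, each log2 value was taken as its deviation from the mean of its group. The loci whose deviations followed a member most closely were searched among 8577 loci with a mean of at least 4 FPKM. These Pearson correlations lie within groups, so differences of sex or pedigree do not enter them, nor do differences of age between groups. Some groups pooled embryos of several days, litters or insertion genotypes, and such differences within a group remain in the deviations. The correlations are descriptions, since libraries of a group share litters and differ in depth. *JAG1* was most like *LAMA1* (r = 0.889), a laminin chain of basement membranes, and *RELN* (r = 0.862), which encodes a secreted matrix protein. *NOTCH2* was most like *TTC28* (r = 0.954) and *TJP1* (r = 0.922), a tight junction protein gene. *NOTCH1* was most like *DAB2IP* (r = 0.912), *NOTCH3* most like *KIRREL* (r = 0.839) and *JAG2* most like *IMP4* (r = 0.844). *RBPJ*, *HEY1* and *HEY2* had no locus above 0.734 (*KDM5B*), 0.544 (*LXN*) and 0.623 (*SDAD1*).

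Among members, on the same deviations within groups, *NOTCH1* and *NOTCH3* varied together (r = 0.739, Spearman rho 0.656), as did *NOTCH2* and *RBPJ* (r = 0.713, rho 0.544). *JAG1* and *JAG2* ran opposite ways within groups, more weakly by rank (r = −0.498, rho −0.309). The correlations were not repeated without C3575, the library far from its group in *NOTCH2*. *HEY2* had correlations of −0.15 to 0.202 with the other members. Between control sexes, *KAT2B*, a histone acetyltransferase gene on the pathway list, had 4.94 FPKM in XX and 43.3 FPKM in XY at d44, and *FURIN*, whose product cleaves the receptor precursor, had 10.9 FPKM in XX and 23.6 FPKM in XY. Of the 41 genes of that list tested at d44, 8 were higher and 5 lower in XX, where 12.8% of all loci were higher and 12% lower.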
